A study of Mus musculus with 15 samples.

Results

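Plasma proteins that the liver makes served here as a panel of tissue antigens. The panel holds 34 genes of the 50600 listed for each library, chosen by name with earlier results of these data known. They encode carriers, apolipoproteins, coagulation factors and their relatives, protease inhibitors and matrix components, and innate defence proteins. Tat and Cps1 belong to the panel as enzymes that work inside hepatocytes and are not secreted. RNA came from sorted epithelial cells of C57BL/6J males aged 8 weeks, for which no treatment is named. Medullary thymic epithelial cells (mTEC) were set against cortical thymic epithelial cells (cTEC) and against epithelium of the skin, the colon and the lung. Each of the 5 groups had 3 libraries, and cells of 5 mice were pooled for a library, so that an SD describes 3 pools. No liver was sequenced, and the gates of the sorts are not given in the sources used here.

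Medullary thymic epithelium is known for promiscuous expression, in which genes normally restricted to other organs are transcribed at low level and in few cells at a time. The transcriptional regulator Aire drives a large part of it and Fezf2 another part. Developing T cells that recognise the resulting peptides are deleted or diverted into the regulatory lineage. Serum proteins of the liver are among the best known of these antigens. In the liver itself such genes depend on factors that include HNF4, FOXA and C/EBP proteins.

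The promoters of 5 panel genes are shown because these genes stood well above cTEC in mTEC or sit beside one that did, and because each holds a TATA box or a C/EBP motif in the stretch shown. They were picked with the values known. The window of Itih1, which had a log2 fold change of 5.30 for mTEC minus cTEC, held neither motif and is not shown. Each line gives the 150 bases before the RefSeq start on GRCm38.p6, 5′ to 3′ on the strand of the gene. Capitals mark TATAAA or TTGCNNAA; in Fga and Alb the match is on the other strand, so its reverse complement is marked. The windows are chr1:172697906-172698055 on the plus strand for Crp, chr3:83049864-83050013 on the minus strand for Fgb, chr3:83026003-83026152 on the plus strand for Fga, chr5:90460720-90460869 on the plus strand for Alb and chr5:90490564-90490713 on the plus strand for Afp.
Crp: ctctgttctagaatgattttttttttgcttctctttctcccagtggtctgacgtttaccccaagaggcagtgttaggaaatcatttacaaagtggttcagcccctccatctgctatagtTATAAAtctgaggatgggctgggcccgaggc
Fgb: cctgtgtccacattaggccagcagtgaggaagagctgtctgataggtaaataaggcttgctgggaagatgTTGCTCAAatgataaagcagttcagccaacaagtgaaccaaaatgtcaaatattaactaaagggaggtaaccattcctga
Fga: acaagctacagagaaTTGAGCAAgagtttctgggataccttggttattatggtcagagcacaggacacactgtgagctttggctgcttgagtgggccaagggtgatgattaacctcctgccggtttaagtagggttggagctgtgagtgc
Alb: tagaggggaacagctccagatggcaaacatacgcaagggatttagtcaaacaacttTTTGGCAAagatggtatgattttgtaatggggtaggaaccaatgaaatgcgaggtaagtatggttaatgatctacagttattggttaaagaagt
Afp: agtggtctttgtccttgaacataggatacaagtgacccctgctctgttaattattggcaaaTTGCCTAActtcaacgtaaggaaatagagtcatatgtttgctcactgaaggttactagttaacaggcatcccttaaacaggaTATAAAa
RefSeq promoters, taken as 250 bases before to 50 bases after the start, were found for 27 of the 34 genes. The TATA box TATAAA, searched on both strands, was in 8 of the 27 (29.6%) and in 13.6% of all 32851 promoters. The HNF4 core CAAAGTC was in 4 (14.8%) and in 4.44%. The C/EBP motif TTGCNNAA was in 11 (40.7%) and in 10.8%. In the Crp window TATAAA began 31 bases before the start, and in the Afp window 7 bases before it. The C/EBP motif began 80 bases before the start in the Fgb window, 135 in the Fga window, 94 in the Alb window and 89 in the Afp window. These distances are to the RefSeq start. It differs from the gene start in GENCODE M21 by 77 bases for Fga, 27 for Alb, 23 for Afp, 1 for Crp and 0 for Fgb. The Fga window thus runs past the M21 start, at 83026076. Each match describes letters only.

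Gene reads per library ran from 12946533 in skin replicate 1 to 41978665 in lung replicate 2. The KAPA RNA Stranded PolyA kit was used for mTEC, cTEC and skin, and the KAPA RNA HyperPrep PolyA kit for colon and lung, where kit and tissue therefore cannot be told apart. Skin replicate 1 had the largest share of reads not assigned to a single gene, 46.9%, against 24.2% to 36.1% in the other 14 libraries. All 10 cTEC markers were lower in each mTEC library than in each cTEC library, and 10 of 12 mTEC markers were higher in each mTEC library. The 10 skin, 10 colon and 10 lung markers were likewise lower in every mTEC library than in every library of their own tissue. Lung libraries also held macrophage and dendritic cell markers, whose 10 genes summed to 1769 to 3300 CPM (reads of a gene relative to the library's TMM-scaled total), against 105 to 210 CPM in mTEC, 47.2 to 67.7 in cTEC, 40.6 to 102 in skin and 7.87 to 14.0 in colon. In lung the sum was made up mainly of Lyz2, at 1187 to 2805 CPM, and Csf1r, at 477 to 591 CPM. Of the 10 markers, 2 (Lyz2 and Csf1r) were called lower and 5 (Adgre1, C1qa, C1qb, Cd163 and Itgam) higher in mTEC than in lung (edgeR), so the list did not move as one. None of the 10 was at 0 in any group.

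One mTEC library stood apart from the others. Of 30 panel genes with at least 30 reads over the mTEC libraries, 24 (80%) were lowest in mTEC replicate 2, against 40.9% of all genes with as many reads. Their median ratio to the mean of mTEC replicates 1 and 3 was 0.456, against 0.952 over all genes. Aire, the regulator of promiscuous expression, stood at 613, 242 and 587 CPM in mTEC replicates 1 to 3, a ratio of 0.404, and Fezf2 had a ratio of 0.725. Most lists of other cells were also lowest in mTEC replicate 2, but not all. The 10 T cell markers summed to 105, 51.6 and 72.8 CPM in mTEC replicates 1 to 3. The 10 macrophage and dendritic cell markers summed to 210, 105 and 187 CPM there. The endothelial, erythroid, enterocyte, colon and lung marker lists were likewise lowest in mTEC replicate 2. The 8 adipocyte markers summed to 190, 61.7 and 113 CPM in mTEC replicates 1 to 3, against 18.6 to 38.1 CPM in cTEC. The 6 B cell markers summed to 59.2, 18.4 and 53.1 CPM, against 26.8 to 86.8 CPM in cTEC. Of the B cell sum, Ighm averaged 27.2 CPM in mTEC and 47.2 CPM in cTEC. For 4 of the 5 B cell markers tested, every mTEC library lay above every cTEC library, against 26.8% of all genes tested. The 7 fibroblast markers, at 135, 142 and 119 CPM, the 10 skin markers, at 4643, 6356 and 5845 CPM, and the 10 cTEC markers, at 2580, 2966 and 2853 CPM, were highest in mTEC replicate 2. So were the 12 mTEC markers, at 6248, 7617 and 7549 CPM, a sum led by Krt5 and Ccl21a that also holds Aire and Fezf2. The part of these in the panel's levels was not tested. Transthyretin (Ttr), a thyroid hormone carrier, had the lowest ratio of all, 0.129. The 5 genes with the highest ratios were Apoc1 at 1.14, F12 at 1.11, Crp at 1.08, Fgg at 0.987 and Rbp4 at 0.938. Counts below are therefore also given without mTEC replicate 2.

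**Figure D1:**
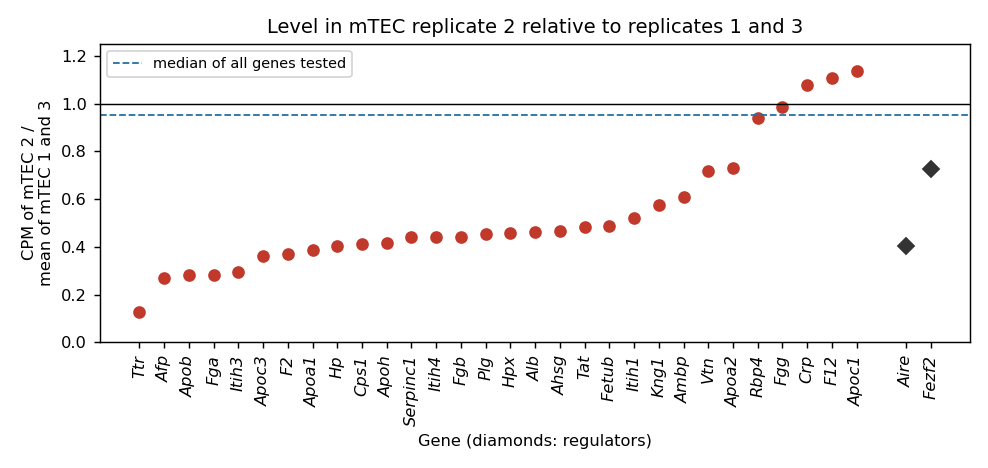
CPM in mTEC replicate 2 divided by the mean of mTEC replicates 1 and 3, for 30 panel genes (circles) and for Aire and Fezf2 (diamonds). The dashed line is the median of all genes tested, 0.952, and 27 of the 30 panel genes lie below 1.

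The first question was how many of the genes could be detected at all. With at least 10 reads taken as detection, mTEC replicates 1 to 3 held 31, 28 and 29 of the 34 genes, cTEC 19, 19 and 16, skin 5, 7 and 8, colon 11, 10 and 10, and lung 16, 14 and 14. Every mTEC library therefore exceeded every other library, including the lung libraries, which were sequenced more deeply. At the read total of the smallest library the expected numbers were 25.4 to 30.1 in mTEC, 14.1 to 16.3 in cTEC, 5 to 7.14 in skin, 7.85 to 8.59 in colon and 9.49 to 10.7 in lung. Over all listed genes the share with 10 reads varied less, from 33.2% to 36.6% in mTEC, 31.1% to 32.7% in cTEC, 26.6% to 28.9% in skin, 29.6% to 30.8% in colon and 31.8% to 32.2% in lung. In such bulk samples, fewer cells of a type and less RNA per cell cannot be told apart.

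No panel gene was without a read over the mTEC libraries. The number without a read in any of 3 libraries was 3 in cTEC, 16 in skin, 4 in colon and 10 in lung. In all 3 libraries of a group, 10 reads were reached by 28 genes in mTEC, 14 in cTEC, 4 in skin, 9 in colon and 12 in lung. For 8 genes, Afp, Apoa2, Apoh, Fga, Fgb, F12, Kng1 and Plg, mTEC was the one group that reached it. Apoc1 and Serpinc1 reached it in every group. The span of Serpinc1 overlaps Gm37729 on the same strand and Gm37072 and Zbtb37 on the other, so the source of its reads is less certain. Ahsg, F9, Apcs, Serpina1a and C9 reached it in none and fell below the filter for the test, so 29 of the 34 genes were tested. The 8 genes that reached it in mTEC alone passed that filter largely through their mTEC reads. They could therefore hardly be called lower in mTEC, and they are part of the counts of higher and lower genes below. Apcs, which encodes the pentraxin serum amyloid P component, had 2 reads over all 15 libraries, both in mTEC. F9, coagulation factor IX, had 5 reads over mTEC and 3 over colon, and C9, a late complement component, had 16 over mTEC, 4 over cTEC, 6 over skin, 22 over colon and 0 over lung. Serpina1a, an antitrypsin gene with near-identical copies that can share its reads, had 3 reads over mTEC and 4 over colon and is uncertain.

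**Figure D2:**
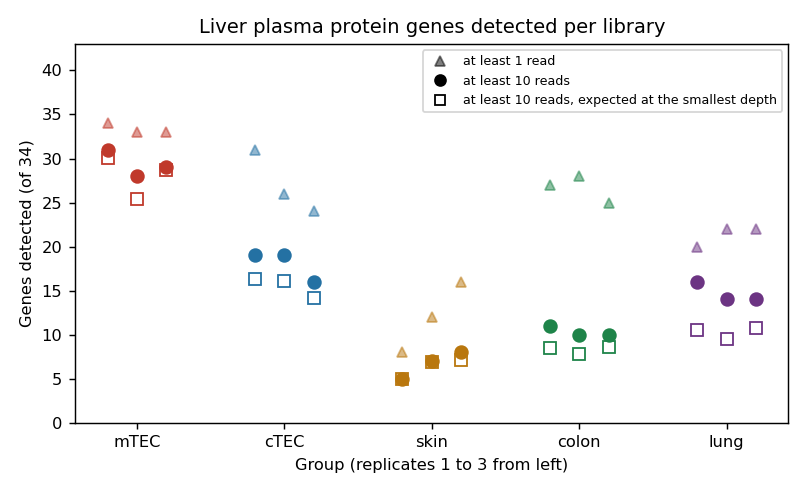
Number of the 34 genes with at least 1 read (triangles) or at least 10 reads (circles) in each library, and the number expected with 10 reads at the smallest library's depth (squares), by group with replicates 1 to 3 from the left. The mTEC libraries reach 28 to 31 genes at 10 reads and the highest of the other 12 libraries reaches 19.

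Levels per length are given as TPM (a length-corrected relative abundance estimated by RSEM). The highest group mean was in mTEC for 23 of the 34 genes, in colon for 5, in lung for 4, and in cTEC and in skin for 1 each. By CPM it was in mTEC for 20 and in colon for 8, since Alb (4.28 CPM in mTEC, 4.41 in colon), C9 (0.258 and 0.297) and Serpina1a (0.0521 and 0.0559) then averaged higher in colon. The genes highest in mTEC include some with few reads there, down to the 2 reads of Apcs. In mTEC the summed TPM of the panel was 409, 262 and 324 in replicates 1 to 3, of which Apoc1 made up the largest share. The sum averaged 332 ± 73.9 in mTEC, 196 ± 52.6 in cTEC, 734 ± 86.3 in skin, 111 ± 11.7 in colon and 261 ± 89.6 in lung (SD, n = 3 each). In CPM, which are not corrected for length, the sums averaged 198 in mTEC, 75.2 in cTEC, 253 in skin, 207 in colon and 225 in lung, so that colon and lung lay below mTEC in TPM and above it in CPM. A single gene carried much of each sum, and without the highest gene of the group it averaged 210 in mTEC (Apoc1), 54.4 in cTEC (Apoc1), 11.4 in skin (Apoc1), 51.6 in colon (Ttr) and 69.8 in lung (Hp). mTEC was thus the group with many genes at low level, whereas the sums of skin, colon and lung rested on few.

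**Figure D3:**
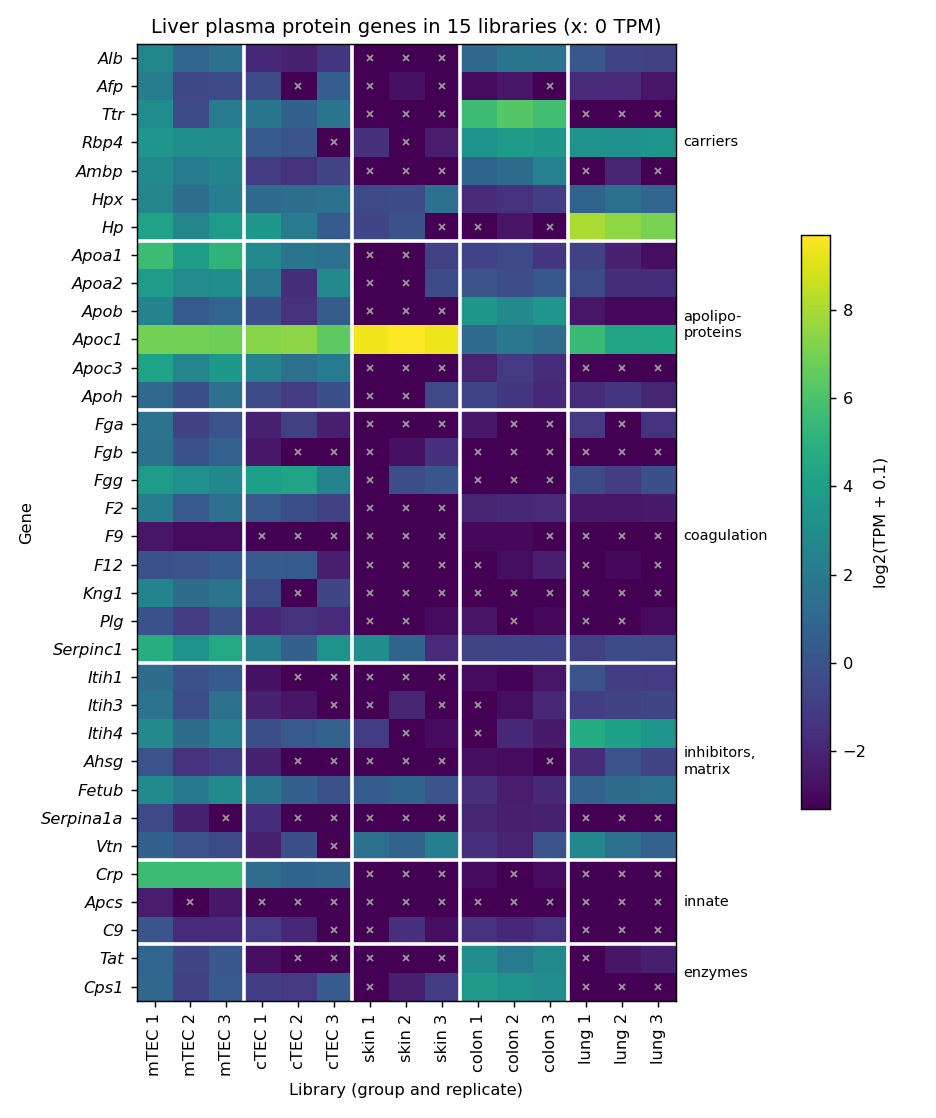
Level of the 34 genes in the 15 libraries as log2(TPM + 0.1), in rows ordered by role, with a cross where a library had 0 TPM. The mTEC columns hold the fewest crosses, and single bright cells stand out for Apoc1 in skin, Hp in lung and Ttr in colon.

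Against cTEC, 15 of the 29 genes tested were higher in mTEC and 0 were lower, at a Benjamini-Hochberg adjusted p under 0.05 in edgeR's quasi-likelihood test, adjusted over all 19107 genes tested. Over all genes, 15.2% were called higher and 9.45% lower. At an unadjusted p under 0.05 the panel counts were 20 higher and 0 lower, for which no share of all genes was taken. DESeq2 called 17 of 31 panel genes higher and 0 lower, against 3688 and 1995 of all 21372 genes tested. The median log2 fold change of the 29 genes was 2.02, against 0.07 over all genes. All 3 mTEC libraries lay above all 3 cTEC libraries for 20 of the 29 genes, against 26.8% of all genes tested, and below them for 0, against 19.9%. Without mTEC replicate 2 the counts were 15 higher and 0 lower of 30 genes tested, against 2674 and 1325 of all 20164. With skin replicate 1 also left out, a setting chosen after the data were seen, they were 20 and 0 of 30. Over all genes they were then 3309 and 1779 of 20055. By contrast, without mTEC replicate 1 the panel counts were 10 and 0 of 29, against 1513 and 895 of all 19744. Without mTEC replicate 3 they were 11 and 0 of 30, against 2184 and 1401 of 19595. Leaving out cTEC replicates 1, 2 or 3 gave 13, 12 and 12 higher of 30. Higher over all genes were then 2721 of 19963, 1819 of 20114 and 1942 of 20019. Without mTEC replicate 1 or cTEC replicate 2 the number of all genes called also dropped, to 2408 and 3075, against 4714. The labels do not say that replicate numbers pair libraries, but same-numbered mTEC and cTEC libraries deviated together. A fit of these 6 libraries with the number as a block called 20 of the genes higher and 0 lower. In that fit 22.8% of all genes were called higher and 18.4% lower. The same 6 libraries without the block gave 17 and 0, against 18.3% and 14.5% of all genes, and the block in all 15 libraries gave 15 and 0, against 14.4% and 8.80%. The 5 additional calls of the blocked fit of 6 libraries were Afp at an adjusted p of 0.0208, Apoc3 at 0.0359, Apoa2 at 0.0366, Apoh at 0.0397 and Fga at 0.0454, of which Apoh and Fga were also called without the block (0.0266 and 0.0401).

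**Figure D4:**
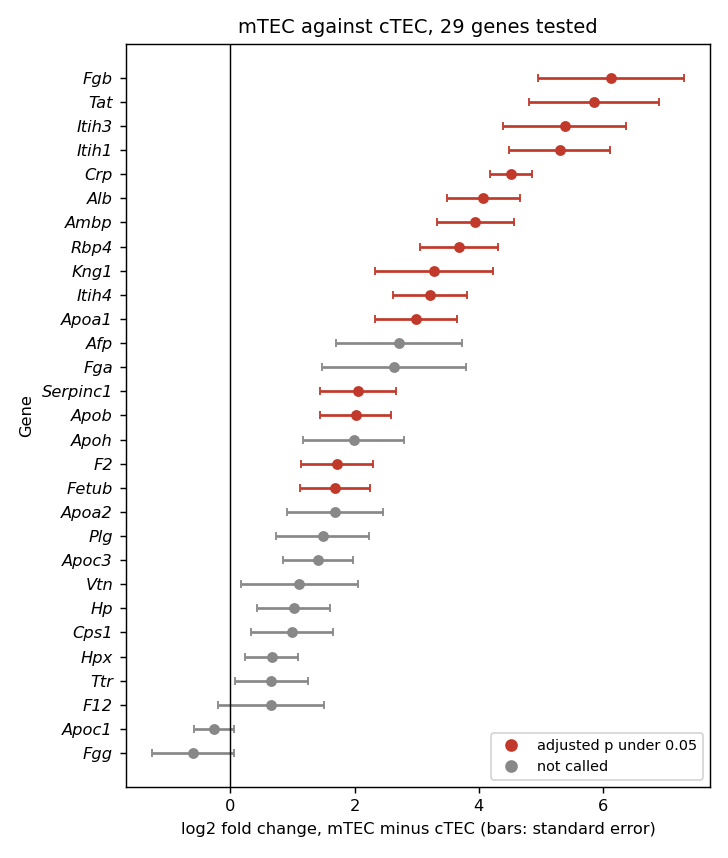
log2 fold change of mTEC minus cTEC with its standard error for the 29 genes tested, red where the adjusted p was under 0.05. Of the 29 values, 27 lie above 0, and Apoc1 and Fgg lie below it without a call.

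Among carriers, 3 of 7 genes were higher in mTEC than in cTEC. Albumin (Alb), the most abundant plasma protein, had 6.07, 1.82 and 2.90 TPM in mTEC, against 0.17, 0.13 and 0.32 TPM in cTEC. The lowest mTEC library was thus above the highest cTEC library, with a log2 fold change of 4.08 ± 0.59 (SE) and an adjusted p of 0.000585 in edgeR. Skin had 0 TPM in all libraries, colon 2.01, 3.26 and 2.99, and lung 1.05, 0.52 and 0.47. The colon and mTEC ranges of Alb overlapped. Ambp, the precursor of alpha-1-microglobulin and bikunin, had 7.39, 3.97 and 5.85 TPM in mTEC and 0.40, 0.28 and 0.53 TPM in cTEC, a log2 fold change of 3.95 ± 0.62 (adjusted p = 0.000931, edgeR). It was at 0 TPM in skin, 1.70, 2.30 and 5.08 in colon and 0, 0.15 and 0 in lung.

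Retinol-binding protein 4 (Rbp4), the plasma carrier of vitamin A, had 10.98, 8.73 and 8.51 TPM in mTEC and 1.24, 0.98 and 0 TPM in cTEC, a log2 fold change of 3.69 ± 0.63 (adjusted p = 0.00115, edgeR). It was of similar size in colon, at 10.27, 13.55 and 12.34 TPM, and in lung, at 9.85, 9.30 and 11.48 TPM, while skin had 0.24, 0 and 0.10 TPM. Colon had the highest mean, and neither colon nor lung was called different from mTEC (log2 fold changes of −0.88 ± 0.53 and −0.43 ± 0.52). Without cTEC replicate 3, which enters the shared estimate of the spread, Rbp4 was called lower in mTEC than in colon (−0.88, adjusted p = 0.0290, edgeR), as it was in DESeq2 (adjusted p = 0.0204). Ttr, whose protein travels bound to retinol-binding protein, had 7.82, 0.72 and 4.05 TPM in mTEC and 3.21, 1.54 and 3.16 TPM in cTEC, which overlapped (log2 fold change 0.66 ± 0.59). The haem scavenger hemopexin (Hpx) and alpha-fetoprotein (Afp), the fetal relative of albumin, were not called against cTEC. Afp had 4.38 TPM in mTEC replicate 1 but 0.60 and 0.66 TPM in the other mTEC libraries, against 0.68, 0 and 1.38 TPM in cTEC. Without skin replicate 3 it was called against cTEC (log2 fold change 2.72, adjusted p = 0.0444, edgeR), and Hp was called without cTEC replicate 1 (2.08, adjusted p = 0.0282, edgeR).

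Among apolipoproteins, the protein parts of lipoprotein particles, 2 of 6 genes were higher in mTEC than in cTEC. Apoa1, the main protein of high-density lipoprotein, had 47.98, 14.79 and 35.74 TPM in mTEC and 7.49, 3.21 and 2.55 TPM in cTEC. The groups did not overlap, and the log2 fold change was 2.99 ± 0.66 (adjusted p = 0.00551, edgeR) and 3.58 without cTEC replicate 1. The other groups had 0 to 0.64 TPM of Apoa1. Its partner Apoa2 had 13.88, 7.76 and 8.78 TPM in mTEC and 3.64, 0.22 and 6.76 TPM in cTEC, and at most 1.09 TPM elsewhere. The triglyceride regulator Apoc3 had 18.72, 5.99 and 12.18 TPM in mTEC and 5.45, 2.67 and 4.11 TPM in cTEC, at most 0.37 TPM in colon and no read in skin or lung. Neither Apoa2 nor Apoc3 was called against cTEC in the fit of all libraries (adjusted p = 0.129 and 0.0941, edgeR).

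Apob, the structural protein of very-low-density lipoprotein and chylomicrons, had 5.54, 1.17 and 1.81 TPM in mTEC and 0.79, 0.26 and 1.33 TPM in cTEC, which overlapped in TPM but not in CPM. Its log2 fold change was 2.02 ± 0.57 (adjusted p = 0.0227, edgeR), and the call was lost without mTEC replicate 1 (1.12, adjusted p = 0.146), without cTEC replicate 1 (1.96, adjusted p = 0.0627) and without cTEC replicate 2 (1.78, adjusted p = 0.0868). Apoc1, a small exchangeable apolipoprotein that macrophages also make, had 126, 124 and 114 TPM in mTEC and 163, 174 and 88.1 TPM in cTEC. These ranges overlapped, and the log2 fold change was −0.26 ± 0.33 (adjusted p = 0.601, edgeR). Apoc1 was the most abundant panel gene in both thymic groups. Apoh, beta-2-glycoprotein I, had 0.82 to 2.63 TPM in mTEC and 0.40 to 0.81 TPM in cTEC and was not called (adjusted p = 0.0905, edgeR). It was called in 5 other settings, namely without skin replicate 3 (adjusted p = 0.0210), in DESeq2 (0.0496), with the 6 thymic libraries alone (0.0266), in the blocked fit of these 6 (0.0397) and with mTEC replicate 2 and skin replicate 1 both left out (0.0431).

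Among coagulation genes and their relatives, 4 of 8 genes tested were higher in mTEC than in cTEC. The 3 fibrinogen chains, which assemble into the clotting protein, did not share one pattern. The beta chain gene Fgb had 2.81, 0.86 and 1.58 TPM in mTEC and 0.07, 0 and 0 TPM in cTEC. This was 246 reads over mTEC against 3 over cTEC, a depth-corrected ratio of 76.6 with a 95% exact interval of 25.9 to 374 that covers counting error only (adjusted p = 0.00461, edgeR). The cTEC reads were all in cTEC replicate 1, and without that library the fitted log2 fold change was 9.48 in place of 6.13. Fga, the alpha chain gene, had 3.05, 0.48 and 0.89 TPM in mTEC and 0.12, 0.46 and 0.11 TPM in cTEC, with a log2 fold change of 2.63 ± 1.16 (adjusted p = 0.119, edgeR). Fgg, the gamma chain gene, had 13.79, 9.17 and 6.63 TPM in mTEC and 16.00, 19.41 and 5.62 TPM in cTEC. Fgg was the one panel gene with its highest mean in cTEC, the ranges overlapped, and the log2 fold change was −0.60 ± 0.66 (adjusted p = 0.551, edgeR). Within mTEC, Fgg was thus well above Fga and Fgb per length in every library. Fgg and Fgb had no read in colon, and Fgg had 0.42 to 0.80 TPM in lung and 0 to 1.03 TPM in skin.

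Antithrombin (Serpinc1), the main inhibitor of thrombin, had 27.24, 9.85 and 23.07 TPM in mTEC and 4.32, 1.51 and 10.19 TPM in cTEC, so that mTEC replicate 2 lay within the cTEC range in TPM but not in CPM. Its log2 fold change was 2.06 ± 0.61 (adjusted p = 0.0245, edgeR), and the call was lost without cTEC replicate 1 (adjusted p = 0.0589), cTEC replicate 2 (0.0937), mTEC replicate 1 (0.0949) or mTEC replicate 3 (0.0631). Skin had 8.36, 1.71 and 0.20 TPM of Serpinc1, and colon and lung had 0.46 to 0.71 TPM. The highest skin value was in the library with the largest share of reads not assigned to a single gene. A link was not tested. In skin replicate 2 and in cTEC replicate 3 Serpinc1 had 77 reads each, at 1.71 and 10.19 TPM. Prothrombin (F2) had 1.14 to 4.35 TPM in mTEC and 0.49 to 1.16 TPM in cTEC, with a log2 fold change of 1.71 ± 0.58 (adjusted p = 0.0474, edgeR). The F2 call did not survive leaving out any of cTEC replicates 1, 2 and 3, mTEC replicates 1 or 3, colon replicates 1, 2 or 3 or lung replicates 2 or 3, at adjusted p of 0.0580 to 0.241. Kininogen (Kng1), the precursor of bradykinin, had 2.32 to 5.78 TPM in mTEC and 0 to 0.65 TPM in cTEC, with a log2 fold change of 3.28 ± 0.95 (adjusted p = 0.0371, edgeR). Its call needed each of cTEC replicates 1 and 3 and of mTEC replicates 1, 2 and 3, with adjusted p of 0.0613 to 0.144 when one was left out, and Kng1 had no read in skin, colon or lung. F12 and plasminogen (Plg) were not called against cTEC.

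Among inhibitors and matrix proteins, 4 of 5 genes tested were higher in mTEC than in cTEC. The inter-alpha-trypsin inhibitor heavy chains, which stabilise hyaluronan matrix, were all called higher. Itih1 had 2.30, 0.85 and 1.29 TPM in mTEC and 0.05, 0 and 0 TPM in cTEC, a log2 fold change of 5.30 ± 0.81 (adjusted p = 0.000828, edgeR). Itih3 had 3.02, 0.75 and 2.67 TPM in mTEC and 0.12, 0.06 and 0 TPM in cTEC, a log2 fold change of 5.38 ± 0.99 (adjusted p = 0.00182, edgeR). Itih4 had 6.87, 2.31 and 4.66 TPM in mTEC and 0.77, 1.16 and 1.63 TPM in cTEC, a log2 fold change of 3.22 ± 0.60 (adjusted p = 0.00194, edgeR). No mTEC library overlapped a cTEC library for these 3 genes. In lung Itih1 had 0.90, 0.41 and 0.39 TPM and Itih3 0.41, 0.48 and 0.57 TPM, while skin and colon had at most 0.17 TPM of either.

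Fetub, a fetuin, had 3.67 to 7.45 TPM in mTEC and 0.84 to 3.21 TPM in cTEC, with a log2 fold change of 1.69 ± 0.56 (adjusted p = 0.0410, edgeR). Leaving out cTEC replicates 2 or 3, mTEC replicates 1 or 3, colon replicates 1 or 3 or lung replicates 1, 2 or 3 ended the call, at adjusted p of 0.0529 to 0.136, and the log2 fold change was 2.32 without cTEC replicate 1. The neighbouring fetuin gene Ahsg had 0.92, 0.26 and 0.43 TPM in mTEC, 0.12, 0 and 0 TPM in cTEC, 0 in skin, 0.04, 0.03 and 0 in colon and 0.21, 0.92 and 0.54 in lung. The highest mean of Ahsg was in lung, within the spread of mTEC. Vitronectin (Vtn), an adhesive glycoprotein, had 1.57, 0.89 and 0.70 TPM in mTEC and 0.13, 0.79 and 0 TPM in cTEC, which overlapped, and was not called, except without cTEC replicate 2 (log2 fold change 3.65, adjusted p = 0.0423, edgeR).

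C-reactive protein (Crp), a pentraxin of the acute-phase response, was the most even of the higher genes. It had 48.02, 47.70 and 48.91 TPM in mTEC, against 2.40, 1.76 and 1.83 TPM in cTEC. The log2 fold change was 4.52 ± 0.34 (adjusted p = 2.34e-05, edgeR). Skin and lung had no read of Crp, and colon had 2 reads over its libraries against 2816 in mTEC. The level in mTEC was at least 594-fold higher than in skin and at least 1535-fold higher than in lung, with 3 reads allowed over a group that had none. Against colon the ratio was 1730 with a 95% exact interval of 478 to 14291. The gene Crp lies at chr1:172698055-172833031 in GENCODE M21, and Apcs, which encodes the other short pentraxin, is 60930 bases away with 2 reads over mTEC. A stretch of Crp is shared on the same strand with Gm38051, and reads in both are lost from the count.

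Of the intracellular enzymes, Tat, which begins tyrosine breakdown, had 1.80, 0.56 and 1.05 TPM in mTEC and 0.04, 0 and 0 TPM in cTEC. It had 82 reads over mTEC and 1 over cTEC, a ratio of 76.6 with a 95% exact interval of 13.4 to 3060 (adjusted p = 0.00210, edgeR). That cTEC read was in cTEC replicate 1, without which the fitted log2 fold change was 7.90 in place of 5.86. Cps1, the first enzyme of the urea cycle, had 1.83, 0.45 and 1.15 TPM in mTEC and 0.43, 0.34 and 1.22 TPM in cTEC, which overlapped, and was not called.

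**Figure D5:**
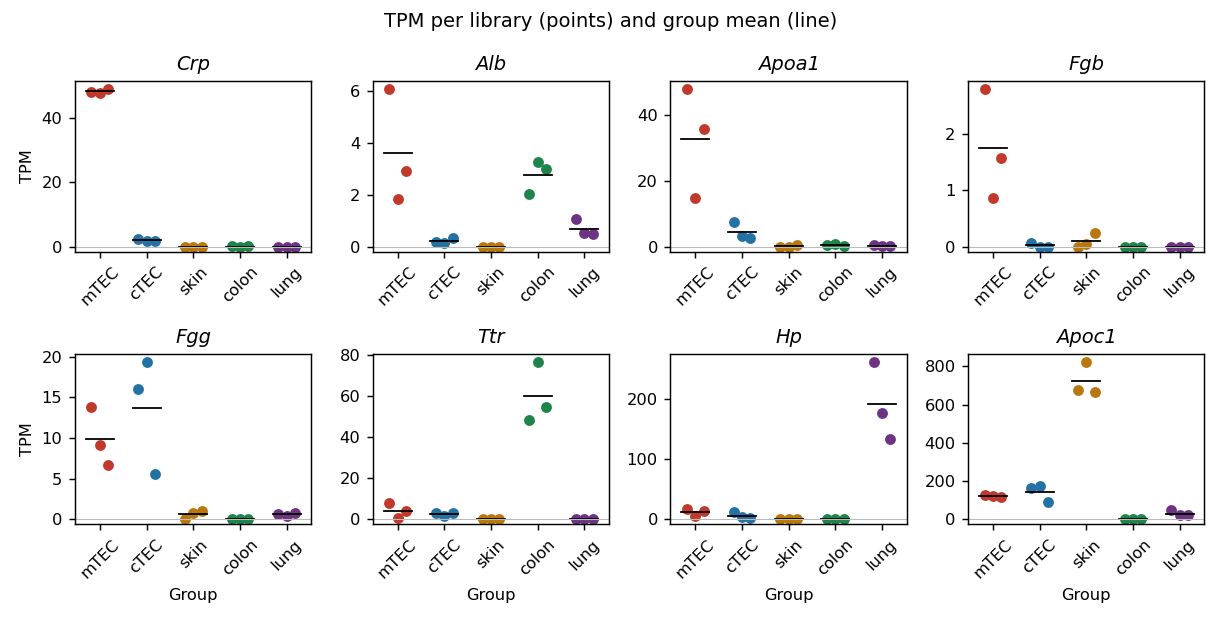
TPM per library (points) and group mean (line) for 8 panel genes in mTEC, cTEC, skin, colon and lung, each panel on its own linear axis. Crp is high in all 3 mTEC libraries (47.7 to 48.9), whereas the highest values of Ttr, Hp and Apoc1 lie in colon, lung and skin.

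The comparisons with the extrathymic groups use the same mTEC libraries and are therefore not independent of one another. Against skin, 25 of 29 genes were higher in mTEC and 1 was lower, where 34.6% of all genes were called higher and 22.4% lower (edgeR). The median log2 fold change was 5.94, or 5.06 with genes lacking a skin read at their lower bound, against 0.22 over all genes. Every mTEC library lay above every skin library for 25 genes, against 36.7% of all genes, and below for 2, against 21.6%. Without mTEC replicate 2 the counts were 27 and 1 of 30 genes tested, against 6694 and 3738 of all 20164. With skin replicate 1 also left out they were 28 and 1 of 30, against 6478 and 4062 of all 20055. Apoh was lost without mTEC replicate 3 (log2 fold change 2.38, adjusted p = 0.0701) or skin replicate 2 (2.13, adjusted p = 0.0543), and Fetub without mTEC replicates 1 or 3 (adjusted p = 0.0544 and 0.0532). Serpinc1, Cps1 and Vtn were not called. Vtn had 1.57, 0.89 and 0.70 TPM in mTEC and 2.60, 1.64 and 4.77 TPM in skin (log2 fold change −2.11, adjusted p = 0.0515, edgeR), and was called lower in mTEC without cTEC replicate 2 (adjusted p = 0.0190), cTEC replicate 3 (0.0275) or colon replicate 2 (0.0478). Cps1 was called higher without mTEC replicate 2 (log2 fold change 2.03, adjusted p = 0.0372) or skin replicate 3 (3.09, adjusted p = 0.00475).

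The gene lower in mTEC than in skin was Apoc1. It had 126, 124 and 114 TPM in mTEC, against 675, 825 and 667 TPM in skin, with a log2 fold change of −3.16 ± 0.35 (adjusted p = 3.87e-06, edgeR). The ranges lay far apart. Apoc1 was also the highest panel gene of skin, and colon had 2.22, 3.54 and 2.45 TPM of it and lung 46.50, 19.58 and 19.95 TPM.

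Against colon, 20 of 29 genes were higher in mTEC and 4 were lower, where 36.9% of all genes were called higher and 29.1% lower (edgeR). The median log2 fold change was 3.77, against 0.18 over all genes. Every mTEC library lay above every colon library for 22 genes, against 42.9% of all genes, and below for 5, against 34.8%. The counts without mTEC replicate 2 were 21 and 4 of 30 genes tested, against 7107 and 5137 of all 20164. With skin replicate 1 also left out they were 22 and 4 of 30, against 7466 and 5644 of all 20055. Apoh was not called (adjusted p = 0.0636, edgeR), but was called higher without skin replicates 1, 2 or 3 (adjusted p of 0.0143 to 0.0414). The 4 lower genes were Ttr, Cps1, Tat and Apob. Ttr had 7.82, 0.72 and 4.05 TPM in mTEC, against 48.07, 76.67 and 54.44 TPM in colon, with a log2 fold change of −4.43 ± 0.62 (adjusted p = 9.45e-05, edgeR) and of −5.13 without mTEC replicate 1. It had no read in skin or lung. Cps1 had 1.83, 0.45 and 1.15 TPM in mTEC and 13.02, 10.13 and 8.01 TPM in colon, with a log2 fold change of −3.69 ± 0.68 (adjusted p = 0.000407, edgeR), 0, 0.11 and 0.38 TPM in skin and no read in lung.

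Tat had 1.80, 0.56 and 1.05 TPM in mTEC and 8.44, 4.01 and 7.01 TPM in colon, with a log2 fold change of −3.13 ± 0.64 (adjusted p = 0.000905, edgeR). It had no read in skin and 0, 0.06 and 0.11 TPM in lung. Apob, which the intestine also makes for chylomicrons, had 5.54, 1.17 and 1.81 TPM in mTEC and 11.57, 6.83 and 10.93 TPM in colon. Its log2 fold change was −3.09 ± 0.56 (adjusted p = 0.000345, edgeR), and −3.98 without mTEC replicate 1. Apob had no read in skin and 0.02 to 0.07 TPM in lung. For all 4 genes every mTEC library lay below every colon library.

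Against lung, 21 of 29 genes were higher in mTEC and 3 were lower, where 34.9% of all genes were called higher and 28.6% lower (edgeR). The median log2 fold change was 3.65, against 0.14 over all genes. Every mTEC library lay above every lung library for 23 genes, against 41.4% of all genes, and below for 4, against 35.5%. The counts without mTEC replicate 2 were 21 and 2 of 30 genes tested, against 6702 and 5006 of all 20164. With skin replicate 1 also left out they were 23 and 2 of 30, against 7042 and 5542 of all 20055. Among the higher genes, Afp was lost without mTEC replicate 1 (log2 fold change 1.84, adjusted p = 0.157) or lung replicate 3 (adjusted p = 0.0548), and Itih3 without mTEC replicates 1 or 3 or lung replicates 1 or 2 (adjusted p of 0.0778 to 0.0855). Fga was called higher without skin replicate 3 (adjusted p = 0.0421) and Fetub without cTEC replicate 3 (adjusted p = 0.0451). The lower genes were Hp, Itih4 and Vtn. Haptoglobin (Hp), which binds free haemoglobin, had 17.78, 5.97 and 13.80 TPM in mTEC, against 263, 177 and 134 TPM in lung. The log2 fold change was −4.22 ± 0.63 (adjusted p = 4.16e-05, edgeR), and no library overlapped. In cTEC Hp had 12.27, 4.03 and 1.27 TPM, in skin 0.57, 0.85 and 0 TPM and in colon 0, 0.06 and 0 TPM.

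Itih4 had 6.87, 2.31 and 4.66 TPM in mTEC and 26.02, 17.20 and 11.37 TPM in lung, a log2 fold change of −2.09 ± 0.53 (adjusted p = 0.00308, edgeR). Skin had 0.39, 0 and 0.03 TPM of it and colon 0, 0.17 and 0.09 TPM. Vtn had 1.57, 0.89 and 0.70 TPM in mTEC and 6.39, 2.71 and 1.58 TPM in lung, with a log2 fold change of −2.27 ± 0.86 (adjusted p = 0.0324, edgeR). The Vtn call was lost without any of mTEC replicates 1, 2 and 3 (adjusted p = 0.0643, 0.0950 and 0.0964) and without lung replicate 1 (−1.60, adjusted p = 0.155). Colon had 0.25, 0.14 and 0.91 TPM of Vtn. Hp, Itih4 and Vtn were each highest in lung replicate 1. Among macrophage and dendritic cell markers, Lyz2 was also highest in that library, at 2805 CPM, whereas Csf1r was lowest of the lung libraries there, at 477 CPM, and Adgre1, C1qa, C1qb, Cd163 and Itgam had 0 to 0.308 CPM. The 10 lung markers summed to 37712, 30845 and 30209 CPM in lung replicates 1 to 3. Of these, Lamp3 (309, 192 and 104 CPM), Napsa (264, 135 and 105) and Abca3 (472, 387 and 363) were highest in lung replicate 1. Ager (12639 CPM) and Hopx (3616 CPM) were lowest there. The part of any of these cells in Hp, Itih4 and Vtn was not tested.

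The extrathymic comparisons can also be read by role, against 34.6%, 36.9% and 34.9% of all genes called higher in mTEC than in skin, colon and lung. The shares of all genes called lower were 22.4%, 29.1% and 28.6%. Of the tested genes, coagulation genes were called higher for 7 of 8 against skin, 8 of 8 against colon and 7 of 8 against lung. In this role 0 were called lower. Its genes Fga, Fgb, F12, Kng1 and Plg reached 10 reads in all 3 libraries of mTEC alone. Apolipoproteins were called higher for 5 of 6 against skin, 4 of 6 against colon and 6 of 6 against lung. Among them 1 was lower against skin and 1 against colon. Carriers were higher for 7 of 7, 3 of 7 and 4 of 7 in the same order, with 0, 1 and 1 lower. Inhibitors and matrix genes were higher for 4 of 5, 4 of 5 and 1 of 5, with 0, 0 and 2 lower. The 2 enzymes were higher for 1, 0 and 2, with 0, 2 and 0 lower. Crp, the 1 innate defence gene tested, was higher in all 3.

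Levels in cTEC, as a share of those in mTEC, differed widely between panel genes. The cTEC mean CPM as a share of the mTEC mean was 9.21% for Aire and 19.3% for Fezf2. For the 30 panel genes with at least 30 reads over mTEC it ran from 1.19% for Tat and Fgb, 2.25% for Itih3, 4.35% for Crp and 5.84% for Alb to 63.4% for Ttr, 120% for Apoc1 and 151% for Fgg. The 3 genes nearest to Aire by this share were Kng1 at 10.1%, Itih4 at 10.7% and Rbp4 at 7.56%. F9, Apcs and Serpina1a had no cTEC read and 5, 2 and 3 reads over mTEC. Aire itself was higher in mTEC than in cTEC, with a log2 fold change of 3.44 ± 0.51 (adjusted p = 0.000384, edgeR), and Fezf2 with 2.37 ± 0.42 (adjusted p = 0.00304, edgeR; 0.148 in DESeq2).

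Genes of the panel that lie next to each other did not always share a level. In GENCODE M21, 15 of the 34 genes lie within 250 kb of another, in 6 groups. Alb and Afp, 14135 bases apart, had 261 and 131 reads over mTEC. Apoa1 and Apoc3, 2467 bases apart, were both well covered in mTEC. Fgg, Fga and Fgb lie within one stretch with gaps of 11027 and 6514 bases, yet Fgg had its highest mean in cTEC and Fgb had 3 reads there. Itih4, Itih3 and Itih1, with gaps of 6219 and 5420 bases, were all called higher in mTEC than in cTEC. Ahsg, Fetub and Kng1 form another group, in which Ahsg had 30 reads over mTEC and Kng1 218. Crp and Apcs differed most, with 2816 and 2 reads.

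Other liver genes, from lists chosen like the panel with earlier results known, were counted in the same way against cTEC. As in the panel, genes that passed the filter largely through their mTEC reads could hardly be called lower. Any such genes are part of the counts and medians of these lists, and their number was not taken. Of 61 other plasma protein genes, 60 were found and 49 tested, and 11 were higher and 4 lower against cTEC (edgeR), where 15.2% of all genes were higher and 9.45% lower. Their median log2 fold change was 1.30, or 1.13 with genes lacking a cTEC read at their lower bound, against 0.07 over all genes. The iron hormone hepcidin (Hamp) had 18.1, 8.09 and 15.5 CPM in mTEC and 2.91 to 4.46 CPM in cTEC, a log2 fold change of 1.93 ± 0.40 (adjusted p = 0.00374, edgeR). Apoa5, an activator of lipoprotein lipolysis, had 74 reads over mTEC and 1 over cTEC, a ratio of 69.1 with a 95% exact interval of 12 to 2765. Its fitted log2 fold change of 5.71 became 7.75 without cTEC replicate 1, which held the cTEC read. Cpb2, a carboxypeptidase that slows fibrinolysis, had a log2 fold change of 3.61 ± 0.77 (adjusted p = 0.00785, edgeR; 4.27 without cTEC replicate 2). Serpinf1, an antiangiogenic serpin that fibroblasts also make, was lower, at 3.07 to 3.95 CPM in mTEC and 55.1 to 76.4 CPM in cTEC (log2 fold change −4.21 ± 0.42, adjusted p = 2.56e-05, edgeR). The 7 fibroblast markers summed to 119 to 142 CPM in mTEC and 256 to 507 CPM in cTEC, and their part in Serpinf1 was not tested.

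Of 40 hepatocyte enzymes and transporters, 30 were tested, and 14 were higher and 2 lower in mTEC than in cTEC, against the same 15.2% and 9.45% of all genes, with a median log2 fold change of 1.67. Hpd, which acts after Tat in tyrosine breakdown, had 1.12 to 1.86 CPM in mTEC and 0 to 0.286 CPM in cTEC (log2 fold change 3.08 ± 0.54, adjusted p = 0.00279, edgeR; 3.94 without cTEC replicate 1). Fah, the last enzyme of that pathway, was lower, at 32.0 to 35.3 CPM in mTEC and 78.9 to 93.7 CPM in cTEC (log2 fold change −1.38 ± 0.14, adjusted p = 3.02e-05, edgeR). The sterol hydroxylase Cyp27a1 was the other lower gene (log2 fold change −1.64 ± 0.21, adjusted p = 0.00016, edgeR). The tyrosine pathway thus held members on both sides.

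Of 20 transcription factors of the liver, 19 were tested, and 7 were higher and 0 lower in mTEC than in cTEC, where 15.2% and 9.45% of all genes were. Every mTEC library lay above every cTEC library for 12 of the 19, against 26.8% of all genes. Hnf4a was low in both thymic groups, at 1.45 to 3.67 CPM in mTEC and 0.504 to 0.904 CPM in cTEC (log2 fold change 1.81 ± 0.36, adjusted p = 0.00383, edgeR), against 569 to 642 CPM in colon. Foxa1 had 19.2, 15.4 and 11 CPM in mTEC and 3.42 to 6.33 CPM in cTEC (log2 fold change 1.63 ± 0.31, adjusted p = 0.00227, edgeR).

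Foxa2 had a log2 fold change of 2.26 ± 0.55 (adjusted p = 0.0111, edgeR; 3.003 without cTEC replicate 1), which was lost in the blocked fit of the 6 thymic libraries at an adjusted p of 0.0519. Nr0b2, a corepressor of bile acid signalling, had 63 reads over mTEC and 2 over cTEC, a ratio of 29.4 with a 95% exact interval of 7.81 to 248. Both cTEC reads were in cTEC replicate 1, and the fitted log2 fold change was 7.57 without it and 4.74 with it. Prox1 had a log2 fold change of 1.55 ± 0.52 (adjusted p = 0.0413, edgeR), 2.15 without cTEC replicate 1, and lost its call without cTEC replicate 2, cTEC replicate 3, any of mTEC replicates 1, 2 and 3, colon replicates 2 or 3 or lung replicates 2 or 3, at adjusted p of 0.0513 to 0.120. With the replicate number as a block in all 15 libraries, Prox1 had an adjusted p of 0.0662. Against colon, 4 of these factors were higher and 10 lower in mTEC, where 36.9% of all genes were higher and 29.1% lower.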

How the data were processed

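Sorted epithelial cells of 5 groups were sequenced, 3 libraries per group, each from polyA RNA. Per the submitters' processing notes, bcl2fastq 2.20, STAR 2.5.1b and RSEM 1.2.28 were used with GRCm38 and no annotation release is named. The deposited read counts per gene come in 1 unstranded and 2 stranded columns, and the sense column (column 4) was used, which held 8.43 to 19.3 times as many reads as the opposite strand. Reads not assigned to a single gene, 24.2% to 46.9% of a library, stayed out of all totals. The deposited expected counts of RSEM were rounded and served as an alternative, and the TPM of RSEM, as deposited, gave the levels per length.

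Tests used edgeR 4.0.16 and, as an alternative, DESeq2 1.42.0 in R 4.3.3; the remaining work used Python 3.11.15 with pandas 2.3.3 and SciPy 1.17.1. The sense counts of 19107 genes left by filterByExpr were fitted in one 5-group model on all 15 libraries with TMM factors. Standard errors are the size of the log2 fold change over the square root of F. Genes were matched by identifier to GENCODE M21, which held 50376 of the 50600 identifiers and all 34 panel genes, 25 of them in the same version. A fold over a group without reads takes that group at 3 reads over its libraries. Values in every library are given for the 8 genes highest in mTEC by TPM, the 8 with the largest called change over cTEC, up to 4 called lower per comparison, and those highest outside mTEC. From other lists the 4 smallest p are named, and the called transcription factors; a few genes that this rule names are not reported here. Genes shown beside these were chosen after their values were seen. The panel and the lists were chosen with earlier results of these data known.

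Same-numbered mTEC and cTEC libraries deviated together from their group means, with correlations across genes of 0.290, 0.278 and 0.156. The block rests on these values alone, since the labels name no pairs and differently numbered libraries were not compared. For mTEC with skin, colon or lung the same correlations ran from −0.0636 to 0.114. Replicates of a group differed beyond sampling noise, with a chi-square per degree of freedom of 20.5 to 191. Intervals and lower bounds cover counting error only, since the labels name no molecular identifiers and several reads can come from one molecule. The fit was tested on simulated data.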

Additional observations from a re-analysis of the deposited data

How the results depend on the processing

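A total of 26 other settings were fitted, 15 of them leaving out one library each. Of the member calls, 10 of 15 against cTEC, 24 of 26 against skin, 24 of 24 against colon and 21 of 24 against lung held in all settings run. Those lost to single libraries stand in the report; F2 was also lost without a filter on low counts (adjusted p = 0.0711), with RSEM expected counts (0.0564) and with unstranded counts (0.0726), and Vtn against lung with upper quartile scaling (0.0517), with mTEC replicate 2 and skin replicate 1 both left out (0.0793) and with the replicate block (0.0546). Foxa2 was lost with only the 2 groups compared (0.0551), as were Prox1 (0.0533) and, against skin, Apoh (0.0924). The cause was not tested in any of these. Fits that left out 1 library tested 29 or 30 members. They gave 10 to 18 members higher and 0 lower against cTEC and 24 to 27 higher and 1 to 2 lower against skin. Against colon the counts were 20 to 22 and 4 to 5, and against lung 19 to 22 and 2 to 3. The genes called ranged from 2408 to 6554, 9618 to 12133, 11464 to 14009 and 10999 to 13573 in the same order of comparisons. Calls gained in some setting went to 8, 3, 2 and 3 members against cTEC, skin, colon and lung. Against skin, 2 members were lower with DESeq2, with unstranded counts and with only the 2 groups compared. The blocked fit of mTEC and cTEC alone, which changes both the libraries and the block, called 7091 genes. In all 15 libraries the replicate block changed no member call but that of Vtn against lung.

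Direction turned for Ttr against cTEC (−0.0508 without mTEC replicate 1 to 1.15 without mTEC replicate 2, against 0.66), which was called higher with mTEC replicate 2 and skin replicate 1 both left out (1.13, adjusted p = 0.0426), and, with no call, for Alb against colon, at −0.05 in the fit reported and 0.08 with DESeq2 size factors, 0.18 with upper quartile scaling, 0.0166 without a filter, 0.0806 with DESeq2, −0.59 without mTEC replicate 1, 0.22 with mTEC replicate 2 and skin replicate 1 left out, 0.24 without mTEC replicate 2, 0.12 without mTEC replicate 3 and 0.11 without colon replicate 2. Upper quartile scaling moved the median of all genes to 0.40 against colon and 0.36 against lung, with 8006 higher and 4583 lower, and 7699 higher and 4509 lower, where the fit reported had 7060 and 5559, and 6674 and 5474; member counts became 21 higher and 4 lower, and 23 and 2.

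With at least 1 read as detection, skin averaged 12 genes and colon 26.7. Leaving out a library gave means of 28.5 to 30 genes at 10 reads in mTEC, 17.5 to 19 in cTEC, 6 to 7.5 in skin, 10 to 10.5 in colon and 14 to 15 in lung, and summed TPM of 293 to 366, 178 to 226, 684 to 761, 105 to 116 and 212 to 298 in the same order. Summed as CPM the panel stood at 198 in mTEC, 75.2 in cTEC, 253 in skin, 207 in colon and 225 in lung, and without the highest gene its TPM were 210 in mTEC, 54.4 in cTEC, 11.4 in skin, 51.6 in colon and 69.8 in lung. Most members had few reads outside mTEC, so that differences among low genes were limited by depth.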

Other observations

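Genes of the intestinal enterocyte were a further group, of which Apoa4 is also among the other plasma protein genes. All 10 enterocyte markers had at least 10 reads in each mTEC library, against 7 to 9 in cTEC, 3 in skin, 7 in colon and 4 to 5 in lung. Their sum was 202, 122 and 166 CPM in mTEC, 120, 85.5 and 91.7 CPM in cTEC, 115 to 136 CPM in skin, 558 to 833 CPM in colon and 31.0 to 72.5 CPM in lung. Of the 10, 3 were called higher in mTEC than in cTEC and 0 lower by edgeR, where 15.2% of all genes were higher and 9.45% lower. Apoa4, a lipoprotein gene of gut and liver, was one of the 3 and made up 70.6 CPM of the sum in mTEC replicate 1, with a log2 fold change of 1.75 ± 0.56 (adjusted p = 0.0344, edgeR).

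Fabp1, a fatty acid carrier of liver and small intestine, had 5.38, 1.90 and 2.95 CPM in mTEC and 1.43, 0.446 and 0 CPM in cTEC, and was not called (adjusted p = 0.0678, edgeR). Sucrase-isomaltase (Sis) had 5.73, 1.56 and 1.91 CPM in mTEC and 1.24, 0.557 and 1.06 CPM in cTEC, also without a call (adjusted p = 0.131, edgeR). Both were highest in mTEC replicate 1 and lowest in mTEC replicate 2, as many panel genes were. These genes were picked after their values were seen.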
